A study of Mus musculus with 24 samples.

Results

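LCL161 was compared with vehicle in cells sorted from the spleen as CD45+ and CD4+, which took 6 of the 24 libraries of the series: the 3 count columns named for spleen, LCL161 and CD4, and the 3 named for spleen, vehicle and CD4. Every mouse in both groups was TCRα-/-, so the controls carry that deletion too, and the series has no wild-type group. Each carried a pancreatic tumor grown in the pancreas from M8 live passage organoids. The treated group received LCL161 at 75 mg/kg by oral gavage at intervals of 3 days from day 4, the control group received vehicle, and spleens were taken on day 12, after 3 doses. The sources used here give no ages, no strain background and no origin of the organoid line, and the labels do not say that the 3 replicates of a group are separate mice. The p-values therefore measure a spread between libraries, which may be technical. The other 18 libraries (spleen CD8, tumor CD4 and tumor CD8, each with vehicle or LCL161) entered the same model to estimate the spread of each gene. That spread is pooled over groups that do not vary alike. Spleen CD4 libraries with LCL161 differed more from each other than those of any spleen CD8, tumor CD8 or tumor CD4 LCL161 group. The p-values can therefore be too small.

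LCL161 is a small molecule that mimics SMAC, a mitochondrial protein that binds inhibitor of apoptosis proteins. Such compounds cause cIAP1 and cIAP2, the products of Birc2 and Birc3, to be degraded. In resting lymphocytes the cIAPs, together with TRAF2 and TRAF3, keep the kinase NIK (Map3k14) at a low level by marking it for destruction. Once NIK accumulates it activates IKKα (Chuk), which leads to processing of p100, the product of Nfkb2, and lets dimers with RELB enter the nucleus. This is the alternative NF-kB pathway. The classical pathway runs through RELA, REL and p50 and switches on its own inhibitors, among them IκBα (Nfkbia). Many of the genes described below are known NF-kB targets or genes that T cells switch on with activation.

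The libraries held 18.2 to 20.3 × 1e6 counts with vehicle and 21.6 to 23.5 × 1e6 with LCL161. Mitochondrial genes took 1.82% to 1.91% of counts with vehicle and 1.93% to 2.38% with LCL161, and ribosomal protein genes 1.94% to 2.42% and 2.12% to 3.34%. Levels below are CPM, counts per 1e6 counts of the TMM-scaled library, given for replicates 1, 2 and 3 in that order, with n = 3 libraries a group throughout. Changes are log2 fold changes of LCL161 over vehicle ± SE from edgeR's quasi-likelihood test, and adjusted p is adjusted over all 20174 genes tested. Trac, the constant gene of the chain that the TCRα-/- genotype removes, had 293, 573 and 119 CPM on vehicle and 1082, 758 and 353 CPM on LCL161 (adjusted p = 0.34), and as the sources do not say which part of Trac is deleted, this checks no label. Cd4 had 1312, 1358 and 860 CPM on vehicle and 1430, 1098 and 1248 CPM on LCL161. Cd8a was between 0.41 and 3.98 CPM in all 6. Cd8b1, the other CD8 marker, was at higher levels, with 97.1, 15.5 and 73.3 CPM on vehicle and 16.8, 17.8 and 18.1 CPM on LCL161 (adjusted p = 0.16). A principal component analysis of the 6 libraries did not split them cleanly by treatment. The first component, with 34.2% of the variance, held LCL161 replicate 1 at one end (101.7) and vehicle replicates 3 and 1 at the other (-69.4 and -52.8), with the remaining 3 between 0.09 and 14.4.

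Among the 20174 genes tested, 87 (0.431%) passed an adjusted p of 0.05. LCL161 libraries were higher in 48 of them (0.238% of genes tested) and lower in 39 (0.193%), and 65 of the 87 changed by at least 2-fold. At least 20% of the exonic bases are shared with another annotated gene for 10 of the 87, so some calls may count the same reads. Of the exonic bases of Bcl3 6.51% are shared with Gm16175, and of those of Icam1 11.7% with Gm47079. Both of these partners lie on the opposite strand and were called too. The 3 LCL161 values lay wholly above or wholly below the 3 vehicle values for 86 of the 87, against 14.6% of all genes tested. The 87 were called on these same values, so this separation follows largely from the call and is no separate support. The median log2 fold change over all genes was 0.02, and 3209 of the 20174 had an unadjusted p under 0.05. The counts of list members at that unadjusted p given below are to be read against this share. LCL161 replicate 1 was the highest of the 6 libraries in 32 of the 48 higher genes, and the lowest in 24 of the 39 lower ones. The number of calls leaned on single libraries. In edgeR it fell to 0 when LCL161 replicate 1 was left out (2076 genes kept an unadjusted p under 0.05), and it was 73 or 216 when replicate 2 or 3 of that group was left out instead. Leaving out vehicle replicates 1, 2 and 3 in turn gave 16, 220 and 5. A model of these 6 libraries alone called 0 genes in edgeR (1411 at an unadjusted p under 0.05), limma voom on all 24 called 2 and DESeq2 called 648. The direction was the same for all 41 genes named under the rule and called here in each of these fits. The groups of these 41 genes do not overlap, so leaving out a library could not have reversed it.

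Of the drug's targets, one rose and the other did not pass the test. Birc3, which encodes cIAP2 and is itself an NF-kB target, had 89.2, 82.9 and 89.2 CPM on vehicle and 127, 170 and 155 CPM on LCL161 (0.79 ± 0.17, adjusted p = 0.041). The vehicle libraries were close together and all LCL161 libraries lay above them, with replicate 1 the lowest of the 3, although Birc3 passed in 0 of the 6 fits that left out a library (adjusted p 0.057 to 0.16). Birc2, the gene of cIAP1, had 80.1, 80.7 and 75.5 CPM on vehicle and 48.9, 97.4 and 82.4 CPM on LCL161 (-0.05 ± 0.22, adjusted p = 0.94). The LCL161 values lay on both sides of the vehicle values. Xiap, which encodes another IAP that SMAC binds, had 25.5, 27.4 and 31.3 CPM on vehicle and 21.6, 28.1 and 20.01 CPM on LCL161 (adjusted p = 0.55). In the list of IAP genes and SMAC, 1 of 11 tested members was higher and 0 lower, with a median of -0.05. DESeq2 called 1 higher and 0 lower, and 2 had an unadjusted p under 0.05.

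The alternative NF-kB pathway list had 3 of 16 members higher and 0 lower in edgeR, with a median log2 fold change of 0.05. DESeq2 called 5 higher and 1 lower, and 7 had an unadjusted p under 0.05. The 3 called by edgeR were the genes of the pathway's own dimer, Nfkb2 and Relb, along with Birc3. Nfkb2 (chromosome 19, 46304320 to 46312385, plus strand, GRCm38) encodes p100, from which p52 is cut. It had 182, 153 and 182 CPM on vehicle and 620, 307 and 427 CPM on LCL161, a 2.62-fold rise (1.39 ± 0.24, adjusted p = 0.024). Relb (chromosome 7, 19606217 to 19629438, minus strand) encodes the partner of p52 and had 114, 83.5 and 104 CPM on vehicle against 293, 166 and 181 CPM on LCL161 (1.09 ± 0.18, adjusted p = 0.019). For both genes every LCL161 library lay above every vehicle library, replicate 1 being the highest and replicate 2 the lowest of the LCL161 group. The upstream members did not pass. Map3k14, the gene of NIK, a kinase controlled mainly through its protein, had 24.7, 41.3 and 39.2 CPM on vehicle and 46.5, 27.0 and 29.0 CPM on LCL161 (adjusted p = 0.96). Traf2 (adjusted p = 0.26) and Traf3 (adjusted p = 0.55), the adaptors that hold the cIAPs to NIK, also stayed on the far side of the threshold, at 0.36 ± 0.15 and 0.30 ± 0.24. Ltb, a ligand of the lymphotoxin β receptor that feeds this pathway, had 648, 600 and 649 CPM on vehicle and 1437, 721 and 1094 CPM on LCL161. The groups of Ltb did not overlap, but its adjusted p was 0.096.

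Among the 20 genes of classical NF-kB signaling, 0 were called in either direction by edgeR, and the median was -0.01. At an unadjusted p under 0.05 there were 5, and DESeq2 called 2, 1 in each direction. Rela, the main activating subunit, had 209, 201 and 218 CPM on vehicle and 326, 213 and 225 CPM on LCL161 (adjusted p = 0.27). Nfkb1, the gene of p105 and p50, had 101 to 114 CPM on vehicle and 102 to 128 CPM on LCL161 (adjusted p = 0.62), and Rel had 44.2 to 72.7 and 37.3 to 106 CPM (adjusted p = 0.86). The groups overlapped for all 3 genes.

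Of the 30 targets and feedback genes of NF-kB tested, 6 were higher and 0 lower in edgeR. DESeq2 called 10 higher and 1 lower, and 20 had an unadjusted p under 0.05. The list's median log2 fold change was 0.63, 26 members had a positive value, and 17 had all LCL161 libraries above all vehicle libraries, which was so for 7.67% of all genes tested. Nfkbia (chromosome 12, 55489410 to 55492647, minus strand) encodes IκBα, the inhibitor that NF-kB induces against itself. It had 299, 271 and 288 CPM on vehicle and 955, 571 and 766 CPM on LCL161, a 2.67-fold rise (1.42 ± 0.19, adjusted p = 0.0055). Bcl3 (chromosome 7, 19808462 to 19822770, minus strand), an IκB-family protein that acts in the nucleus with p50 or p52, had 107, 93.1 and 102 CPM on vehicle and 268, 185 and 246 CPM on LCL161 (1.21 ± 0.17, adjusted p = 0.0076). In both genes the vehicle libraries were within a narrow band and the lowest LCL161 library, replicate 2, was well clear of it.

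Traf1 (chromosome 2, 34941750 to 34961772, minus strand), an adaptor for TNF receptors that binds TRAF2 and the cIAPs, had 155, 164 and 123 CPM on vehicle and 386, 269 and 326 CPM on LCL161 (1.15 ± 0.15, adjusted p = 0.0055). Icam1 (chromosome 9, 21015985 to 21028817, plus strand), the adhesion ligand of LFA-1, had 166, 114 and 173 CPM on vehicle and 313, 218 and 426 CPM on LCL161 (1.08 ± 0.22, adjusted p = 0.040). Zc3h12a (chromosome 4, 125118423 to 125127840, minus strand) encodes regnase-1, an RNase that degrades cytokine messages, and had 10.3, 12.8 and 9.82 CPM on vehicle and 48.9, 28.0 and 45.4 CPM on LCL161 (1.89 ± 0.41, adjusted p = 0.048). The highest LCL161 library was replicate 1 for Traf1 and Zc3h12a and replicate 3 for Icam1, and replicate 2 was the lowest for all 3. Cxcl10 (chromosome 5, 92346638 to 92348889, minus strand), a chemokine that draws CXCR3-bearing T cells and is also induced by interferons, had the widest rise of the list. It had 31.1, 14.2 and 19.0 CPM on vehicle and 172, 155 and 74.5 CPM on LCL161, 6.23-fold higher (2.64 ± 0.50, adjusted p = 0.030). Its lowest LCL161 library was more than double its highest vehicle library. Leaving out a library kept Nfkbia, Bcl3 and Traf1 past the threshold in 5 of 6 fits and Cxcl10, Icam1 and Zc3h12a in 1 of 6.

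Several other members of the list came close. Nfkbiz, another nuclear IκB protein, had 22.1, 19.7 and 22 CPM on vehicle and 73.8, 47.1 and 97.7 CPM on LCL161 (1.78 ± 0.40), with an adjusted p of 0.053. Nfkbid, its relative, had 47.9 to 54.6 CPM on vehicle and 68.1 to 124 CPM on LCL161 (adjusted p = 0.079). Both genes had groups that did not overlap. Tnfaip3, the gene of the deubiquitinase A20, had 140, 92.6 and 155 CPM on vehicle and 185, 168 and 237 CPM on LCL161, also without overlap, and was further from the threshold (0.61 ± 0.32, adjusted p = 0.35).

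**Figure D1:**
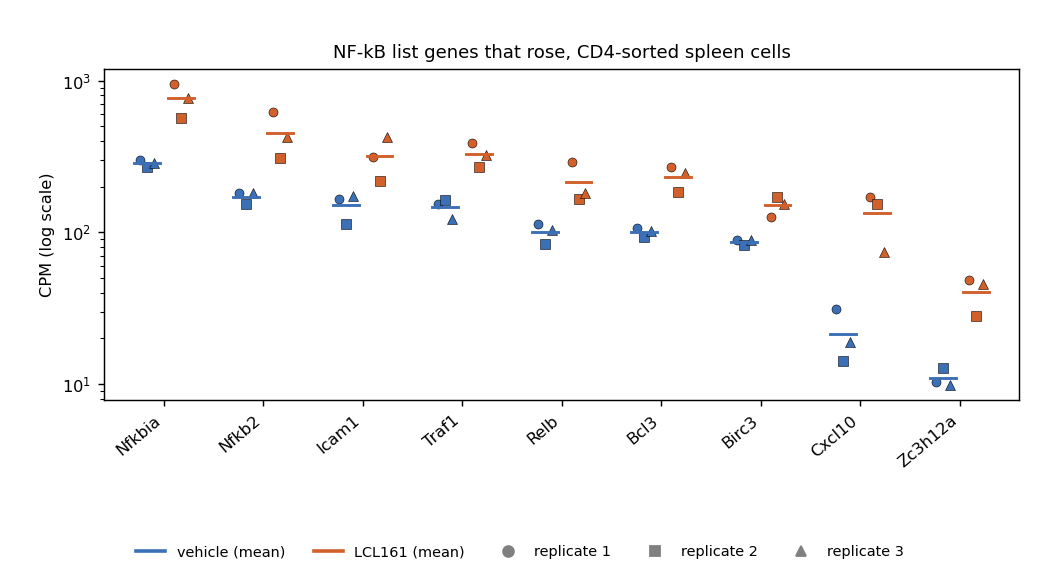
CPM (log axis) of the 9 called genes of the NF-kB and IAP lists in each of the 6 libraries, with circles, squares and triangles for replicates 1, 2 and 3 and bars for group means. All LCL161 points lie above all vehicle points of the same gene, and the LCL161 circle (replicate 1) is the highest in 7 of the 9 genes.

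The 9 called genes of the NF-kB and IAP lists were next set against the sequence in front of them. NF-kB binds kappa B sites, and the form GGGANNNNCC (read on either strand, so also as GGNNNNTCCC, overlaps allowed) was looked for in RefSeq windows of GRCm38.p6 that run from 250 bases before to 50 after each start. Windows were found for 8 of the 9 genes. A match was held by 7 of their 10 windows, belonging to 5 genes (Nfkbia, Bcl3, Nfkb2, Cxcl10 and Birc3). Nfkb2 has more than 1 window, and some of its windows overlap. By gene the share with a match was 62.5%, against 29.6% of all genes tested that have a window. It was 37.1% of those called higher and 27.3% of those called lower. Among all genes tested 25.9% of 14918 windows held one, among the genes called higher 15 of 46 windows (32.6%), and among the genes called lower 6 of 26 (23.1%). The looser form GGGNNNNNCC was in 9 of the 10 windows, in 64.8% of the windows of all genes tested, in 67.4% of those of genes called higher and in 57.7% of those of genes called lower. The members were known before this count was made, so it is given as a description with no test, and a match is not evidence of binding. The 250 bases before the start are shown, 5′ to 3′ on the gene's strand with the matches in capitals, for the 2 genes that have matches there and no annotated exon in that stretch, so that the sites can be read beside the rise with the smallest adjusted p (Nfkbia) and the largest rise (Cxcl10) of the list. They lie at chr12:55492648-55492897 (minus strand) for Nfkbia and at chr5:92348890-92349139 (minus strand) for Cxcl10.
Nfkbia: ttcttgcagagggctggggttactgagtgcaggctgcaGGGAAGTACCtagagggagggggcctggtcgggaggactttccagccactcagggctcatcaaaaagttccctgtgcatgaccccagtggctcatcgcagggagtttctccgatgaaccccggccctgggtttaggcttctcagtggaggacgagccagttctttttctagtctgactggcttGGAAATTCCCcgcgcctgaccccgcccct
Cxcl10: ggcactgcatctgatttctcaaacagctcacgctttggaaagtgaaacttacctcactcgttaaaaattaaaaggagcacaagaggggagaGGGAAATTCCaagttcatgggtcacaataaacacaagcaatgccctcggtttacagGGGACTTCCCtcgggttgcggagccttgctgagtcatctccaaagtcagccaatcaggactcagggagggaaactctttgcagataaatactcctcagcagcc

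The Nfkbia matches start at -212 and -29 relative to the start site, and those of Cxcl10 at -159 and -103. Nfkb2 had matches at -39 (GGGAATTCCC) and -10 (GGGCTTTCCC) of its first window, a stretch that lies within the first exon of another annotated Nfkb2 transcript and is therefore not shown whole. The match of Bcl3 lay in the 50 bases after the start.

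In the TNF receptor family list edgeR called 2 of 13 members higher and 0 lower (median 0.36), and both encode costimulatory receptors of T cells. DESeq2 called 2 higher and 1 lower, and 7 had an unadjusted p under 0.05. Tnfrsf4 (chromosome 4, 156013843 to 156016612, plus strand), the gene of OX40, had 116, 166 and 50.8 CPM on vehicle and 920, 422 and 347 CPM on LCL161 (2.34 ± 0.47, adjusted p = 0.037). Tnfrsf18 (chromosome 4, 156026164 to 156028895, plus strand), its neighbor and the gene of GITR, had 94.5, 116 and 84.7 CPM on vehicle and 356, 231 and 190 CPM on LCL161 (1.40 ± 0.25, adjusted p = 0.026). LCL161 replicate 1 was far above the others for OX40, and replicates 2 and 3 were still at least double the highest vehicle library. Of the exonic bases of Tnfrsf18, 27.2% are shared with Gm16008 on the opposite strand, and without a stated strand setting their reads cannot be told apart. Tnfrsf9, the gene of 4-1BB, had 75.8, 94.8 and 161 CPM on vehicle and 113, 211 and 66.1 CPM on LCL161 (adjusted p = 0.89). Among the ligands, Ltb included, edgeR called 0 of 15 (median 0.17), with 6 at an unadjusted p under 0.05 and 5 called by DESeq2. Of the 23 genes of the cell death and BCL2 list edgeR called 0 and DESeq2 0 (median 0.18), with 8 at an unadjusted p under 0.05.

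Both costimulatory receptors are also on the regulatory T cell list. They were the 2 members of 16 that edgeR called higher, with 0 lower and a median of 0.53. DESeq2 called 3 higher and 0 lower, and 6 had an unadjusted p under 0.05. Foxp3, the defining factor of these cells, had 7.23, 42.1 and 3.48 CPM on vehicle and 8.82, 189 and 2.93 CPM on LCL161 (adjusted p = 0.35). It was high in replicate 2 of each group and low in the other 4 libraries, and its log2 fold change of 1.92 became -1.60 without LCL161 replicate 2. Tnfrsf4 was highest in LCL161 replicate 1, and the part of regulatory T cells in its change was not tested. Ctla4, an inhibitory receptor high in regulatory and activated T cells, had 45.9, 70.9 and 13.3 CPM on vehicle and 167, 147 and 129 CPM on LCL161, apart in every library but with an adjusted p of 0.21. Whether the cells of this subset were more numerous or each held more of these messages cannot be told apart in bulk RNA, which holds for every cell type named below.

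Of the AP-1 and early response genes 4 of 29 were higher and 0 lower in edgeR (median 0.36). DESeq2 called 8 higher and 1 lower, and 14 had an unadjusted p under 0.05. Junb, an AP-1 subunit, had 360, 466 and 308 CPM on vehicle and 1122, 622 and 831 CPM on LCL161 (1.18 ± 0.22, adjusted p = 0.026). Batf, its partner in activated T cells, had 161, 164 and 107 CPM on vehicle and 576, 248 and 253 CPM on LCL161 (1.32 ± 0.27, adjusted p = 0.038). Myc, which drives growth and metabolism after activation, had 40.2, 55.8 and 57.9 CPM on vehicle and 134, 115 and 110 CPM on LCL161 (1.22 ± 0.25, adjusted p = 0.037). The LCL161 libraries of Myc were close to each other, whereas replicate 1 stood above the rest for Junb and Batf. Arc, an immediate early gene best known from neurons, had 14.1, 17 and 9.24 CPM on vehicle and 57.8, 27.8 and 35.2 CPM on LCL161 (1.58 ± 0.33, adjusted p = 0.040). The change did not extend to all early genes. Fos had 37.0 to 50.6 CPM on vehicle and 17 to 51.3 CPM on LCL161 (-0.52 ± 0.46, adjusted p = 0.58), and Egr1 149 to 245 and 161 to 274 CPM (adjusted p = 0.50). Nr4a1, a marker of recent receptor signaling, had 45.1 to 68.1 CPM on vehicle and 98.1 to 163 CPM on LCL161, apart but not past the test (adjusted p = 0.17).

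Socs1 and Socs3, which both block JAK and STAT signaling, were the 2 higher members of 20 in the cytokine signaling feedback list. It had 0 lower and a median of 0.19. DESeq2 called 2 of the 20 higher and 0 lower, and 6 had an unadjusted p under 0.05. Socs1 had 78.3, 96.2 and 85.0 CPM on vehicle and 294, 176 and 190 CPM on LCL161 (1.35 ± 0.21, adjusted p = 0.012). Socs3 had 47.1, 83.6 and 58.9 CPM on vehicle and 171, 126 and 199 CPM on LCL161 (1.39 ± 0.25, adjusted p = 0.026). Neither gene overlapped between groups. Il1r2, the decoy receptor for interleukin 1, was the largest rise the naming rule gave and the 1 gene called of 25 interleukin receptors. Of these 25 DESeq2 called 1 higher and 0 lower, and 5 had an unadjusted p under 0.05. Il1r2 had 44.8, 80.5 and 17.4 CPM on vehicle and 740, 206 and 236 CPM on LCL161, 8.28-fold higher (3.05 ± 0.66, adjusted p = 0.045). Replicate 1 alone carried 740 CPM, and the other two LCL161 libraries were still more than double the highest vehicle library. Neutrophils, which also express Il1r2, had marker sums of 44.4 to 587 CPM on vehicle and 224 to 2261 CPM on LCL161, and their part in the change of Il1r2 was not tested.

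Il1r2 also belongs to the list of genes that glucocorticoids induce, along with Per1 and Mt1. These were its 3 higher members of 16 in edgeR, with 0 lower. DESeq2 called 8 higher and 1 lower, and 13 had an unadjusted p under 0.05. The list's median of 0.96 was the highest of the 27 function lists, 13 members had a positive value (51.8% of all genes tested did) and 9 had every LCL161 library above every vehicle library (7.67% of all genes). Per1, a clock gene that glucocorticoids switch on directly, had 10.7, 11.9 and 12.0 CPM on vehicle and 58.2, 24.1 and 21.1 CPM on LCL161 (1.58 ± 0.29, adjusted p = 0.027). Mt1, a metal-binding metallothionein, had 4.66, 3.52 and 4.91 CPM on vehicle and 16.1, 14.1 and 17 CPM on LCL161 (1.85 ± 0.35, adjusted p = 0.031). The LCL161 values of Mt1 were even, while those of Per1 were led by replicate 1. Fkbp5, a chaperone and a common readout of glucocorticoid signaling, had 270, 319 and 255 CPM on vehicle and 688, 571 and 464 CPM on LCL161 (1.03 ± 0.27, adjusted p = 0.097). Dusp1, a phosphatase of MAP kinases, had 81.4, 80.4 and 69.5 CPM on vehicle and 268, 166 and 144 CPM on LCL161 (adjusted p = 0.080). Tsc22d3, the gene of GILZ, had 116 to 172 CPM on vehicle and 213 to 242 CPM on LCL161 (adjusted p = 0.26), and Zbtb16, which marks innate-like T cells, went the other way, from 16.2, 2.72 and 77.2 CPM to 0.548, 2.09 and 0.963 CPM (adjusted p = 0.13). No value in these data measures the hormone, and whether the animals differed in it was not tested.

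**Figure D2:**
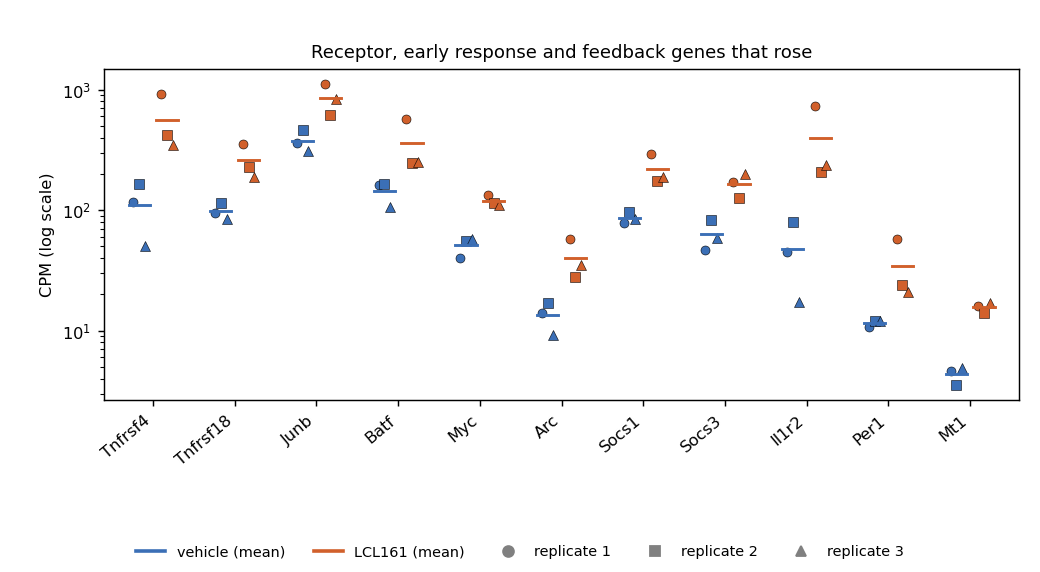
CPM (log axis) of 11 higher genes, the costimulatory receptors, early response genes, cytokine feedback genes and glucocorticoid list genes, in each of the 6 libraries, with shapes for replicates and bars for group means. The groups do not overlap for any of the 11 genes, and for Tnfrsf4, Batf, Il1r2 and Per1 the LCL161 circle (replicate 1) stands above the other two LCL161 points.

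Other rises given by the naming rule came from several functions. Stx11, a SNARE protein that T and NK cells use to release granules, had 189, 189 and 104 CPM on vehicle and 465, 457 and 386 CPM on LCL161 (1.44 ± 0.30, adjusted p = 0.040). Rnf157, a ubiquitin ligase, had 63.9, 38.3 and 36.8 CPM on vehicle and 129, 195 and 66.3 CPM on LCL161 (1.49 ± 0.31, adjusted p = 0.040). Replicate 3 of the LCL161 group came within a few CPM of vehicle replicate 1 for Rnf157, while for Stx11 the groups were far apart. C1qtnf12, a secreted protein, had 4.28 to 5.25 CPM on vehicle and 12.6 to 37.0 CPM on LCL161 (adjusted p = 0.044), and Nt5dc2 had 2.48 to 3.20 CPM on vehicle and 4.66 to 13.7 CPM on LCL161 (adjusted p = 0.048). H2-Q2, a nonclassical MHC class I gene with close paralogs among which reads may have been split, had 13.6 to 36.4 CPM on vehicle and 40.9 to 79.7 CPM on LCL161 (adjusted p = 0.037). Sdhaf1, an assembly factor of respiratory complex II, had 18.6, 16.1 and 17 CPM on vehicle and 70.5, 53.8 and 29.9 CPM on LCL161 (1.57 ± 0.27, adjusted p = 0.019). Of its exonic bases 69.6% are shared with E130208F15Rik on the opposite strand, which was also called, and the reads of the pair cannot be told apart.

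Sdhaf1 was the only gene of 68 that edgeR called in the oxidative phosphorylation list. DESeq2 called 4 higher and 0 lower, and 44 had an unadjusted p under 0.05. The list nonetheless leaned one way, with 67 positive members, 30 of them without overlap between groups, and a median of 0.32, where 51.8% of all genes tested were positive and 7.67% were higher without overlap. Glycolysis had 16 positive of 18 with a median of 0.48, and the cell cycle 29 positive of 30 with a median of 0.44, and in both edgeR called 0 genes. DESeq2 called 2 and 1, and 9 and 6 had an unadjusted p under 0.05. Members of such lists vary together between libraries, so these shares are not counts of independent events. Mki67, the proliferation marker, had 28.0, 54.9 and 16.4 CPM on vehicle and 31.6, 28.5 and 40.1 CPM on LCL161 (adjusted p = 1). Heat shock chaperones leaned down, with 13 negative of 14, a median of -0.23 and 0 called by edgeR or DESeq2 (1 at an unadjusted p under 0.05). Type I interferon response genes had 0 of 23 called by either tool (4 at an unadjusted p under 0.05) and a median of -0.15. The interferon γ response list had 2 of 20 higher, Cxcl10 and Socs1, both described above, and a median of 0.06. DESeq2 called 3 of these 20 higher and 0 lower, and 6 had an unadjusted p under 0.05.

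Effector and subset programs of CD4 T cells were mostly without calls. The count in edgeR was 0 in either direction for effector cytokines (14 tested), cytotoxic effectors (18, median -0.48), follicular helper genes (12, median 0.65, 11 positive), type 1 helper genes (10, median -0.39), type 2 helper genes (8), type 17 genes (11, median -0.38), naive and memory genes (18, median -0.27) and inhibitory receptors (15). In that order 2, 8, 2, 2, 3, 2, 5 and 5 of these had an unadjusted p under 0.05, and DESeq2 called 2 cytotoxic genes, 1 in each direction, and 0 in the other lists. Ifng had 36.4, 49.6 and 32.4 CPM on vehicle and 65.9, 32.1 and 197 CPM on LCL161 (adjusted p = 0.32), a spread set by 1 library. Gzmb, the gene of granzyme B, had 56.6, 46.3 and 224 CPM on vehicle and 61.8, 34.0 and 32.2 CPM on LCL161 (adjusted p = 0.31). Here the outlying library was vehicle replicate 3. Pdcd1, the gene of PD-1, had 634, 488 and 414 CPM on vehicle and 1289, 805 and 659 CPM on LCL161 (adjusted p = 0.58), and Cd69, an early activation marker, 96.7, 130 and 91.8 CPM and 181, 179 and 255 CPM (adjusted p = 0.074).

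Genes of the γδ T cell receptor were among the called falls. Tcrg-C2 (chromosome 13, 19304649 to 19307551, minus strand), a constant gene of the γ chain, had 323, 83.9 and 475 CPM on vehicle and 9.96, 33.4 and 32.7 CPM on LCL161, 11.6-fold lower (-3.53 ± 0.74, adjusted p = 0.041). Trgv2, a variable segment next to it, had 85.9, 28.1 and 134 CPM on vehicle and 2.38, 6.91 and 8.76 CPM on LCL161 (-3.77 ± 0.73, adjusted p = 0.034). The joining segment Trgj2 and the variable segment Tcrg-V4 fell too, by 3.58 and 3.61 on the log2 scale (adjusted p = 0.040 and 0.037). These 3 segments lie outside the naming rule and were picked after their values were seen. Vehicle replicate 2 was the lowest vehicle library for all 4 genes, and still above every LCL161 library. Trdc, the constant gene of the δ chain, had 279, 65.3 and 571 CPM on vehicle and 7.99, 39.4 and 15 CPM on LCL161, with the same order but a wider spread (-3.87 ± 1.07, adjusted p = 0.11). The δ variable segment Trdv5, also outside the rule and picked after being seen, was called lower (-5.88 ± 1.23, adjusted p = 0.040). It had 21.5, 0.545 and 1.80 CPM on vehicle and 0.046, 0.164 and 0.175 CPM on LCL161. Of its exonic bases 47.3% are shared with Trdc on the opposite strand. Tcrg-C1 (adjusted p = 0.11) and Tcrg-C4 (adjusted p = 0.14) had groups that did not overlap and did not pass. Of the 7 γδ T cell markers 1 was called lower, 5 had all LCL161 libraries below all vehicle libraries (6.90% of all genes tested did), and the median was -3.08. Their summed level was 950, 298 and 1633 CPM on vehicle and 76.5, 186 and 107 CPM on LCL161. Tcrg-C2 passed in 1 of the 6 fits that left out a library.

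Among the αβ receptor genes, the joining segment Trbj1-2 of the β chain was called lower at a low level, from 1.75 to 4.33 CPM on vehicle to 0 to 0.131 CPM on LCL161 (adjusted p = 0.013). It too lies outside the naming rule and was picked after its values were seen. Trbc2, a constant gene of the β chain, had 733, 1284 and 508 CPM on vehicle and 1670, 2104 and 1486 CPM on LCL161, without overlap but with an adjusted p of 0.10. The 8 general T cell markers were all positive, with 0 called by edgeR, 1 by DESeq2, 3 at an unadjusted p under 0.05, and sums of 5227, 6323 and 3832 CPM on vehicle and 8054, 7357 and 5835 CPM on LCL161. Cd7, a surface protein of T and NK cells that was the 1 called gene of 23 in the costimulation and receptor signaling list, had 294, 297 and 446 CPM on vehicle and 92.4, 141 and 158 CPM on LCL161 (-1.41 ± 0.25, adjusted p = 0.026). Of the 23 genes of that list DESeq2 called 1 higher and 1 lower, and 5 had an unadjusted p under 0.05. Each LCL161 library of Cd7 lay well below the lowest vehicle library. The noncoding gene Gm11775 overlaps it on the opposite strand and was called alongside it.

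**Figure D3:**
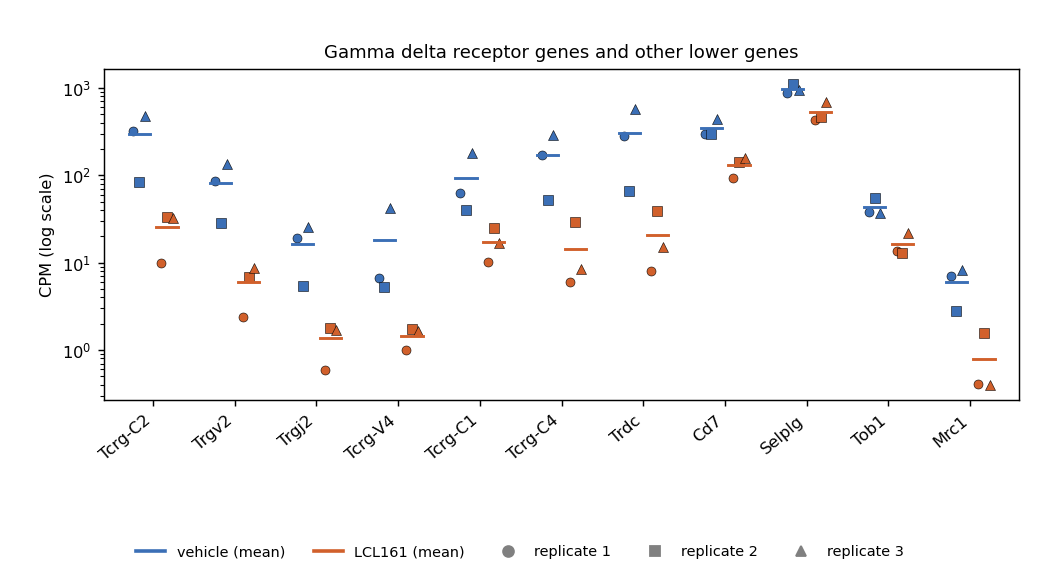
CPM (log axis) of 11 genes lower with LCL161, 7 of them γδ receptor genes, in each of the 6 libraries, with shapes for replicates and bars for group means. All LCL161 points lie below all vehicle points of the same gene, and the vehicle square (replicate 2) is the lowest vehicle point for the γ chain genes and Trdc, of which Tcrg-C1, Tcrg-C4 and Trdc did not pass the test.

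The other falls were smaller or at low levels. Among genes of myeloid and dendritic cells, Mrc1, the mannose receptor, had 7.08, 2.77 and 8.24 CPM on vehicle and 0.411, 1.55 and 0.394 CPM on LCL161 (-2.91 ± 0.61, adjusted p = 0.040). Sirpb1a, a signal regulatory protein of myeloid cells, had 1.88 to 8.20 CPM on vehicle and 0.228 to 1.15 CPM on LCL161 (adjusted p = 0.049). Apol7c, an apolipoprotein L gene, had 11, 2.77 and 4.33 CPM on vehicle and 1.10, 0.696 and 0.963 CPM on LCL161 (-2.71 ± 0.43, adjusted p = 0.014), and passed in 5 of the 6 fits without a library. Mras, a small GTPase, had 4.56 to 7.13 CPM on vehicle and 0 to 0.876 CPM on LCL161 (adjusted p = 0.041). Mrc1, Sirpb1a, Apol7c and Mras were all under 2 CPM in every LCL161 library.

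At higher levels, Pik3r5, a regulatory subunit of the PI3 kinase γ that receptors coupled to G proteins activate, had 64.4, 81.9 and 76.6 CPM on vehicle and 16.8, 16.8 and 46.1 CPM on LCL161 (-1.48 ± 0.30, adjusted p = 0.038). Tob1, which restrains T cell proliferation, had 37.8, 54.8 and 37.2 CPM on vehicle and 13.4, 13 and 22 CPM on LCL161 (-1.42 ± 0.26, adjusted p = 0.027). Scml4, a Polycomb-related gene, had 39.7, 41.2 and 56.2 CPM on vehicle and 17.4, 20.5 and 19.1 CPM on LCL161 (-1.27 ± 0.21, adjusted p = 0.018). LCL161 replicate 3 was the highest of its group for the first pair, and the 3 LCL161 libraries were even for Scml4. Appl2, an endosomal adaptor, fell by 1.88, Itprid2 by 1.57, Pde4a, a phosphodiesterase of cyclic AMP, by 1.34, Paqr4 by 0.99 and Fam49a by 0.98 on the log2 scale (adjusted p 0.027 to 0.040). Zfp82 fell by 1.13, but 34.2% of its exonic bases are shared with Gm26920 on the same strand. Selplg, the selectin ligand PSGL-1, falls outside the naming rule and is added, having been seen, as the most abundant called fall. It had 880, 1116 and 935 CPM on vehicle and 426, 461 and 696 CPM on LCL161 (-0.89 ± 0.16, adjusted p = 0.026).

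Markers of 17 cell types were read in the same libraries, and no marker gene was at 0 in all 6. In edgeR, Tcrg-C2 and Mrc1 were the markers called. DESeq2 called 341 of all 20174 genes lower and 307 higher. Its lower markers were 5 of 7 for γδ T cells, 3 of 9 for monocytes and macrophages and 2 of 6 for NK cells. Also lower were 1 of 2 for CD8 T cells and 1 of 7 for plasmacytoid dendritic cells. Higher were 1 of 8 T cell, 1 of 9 monocyte and macrophage and 1 of 10 neutrophil markers. For γδ T cells 5 markers had an unadjusted p under 0.05, for monocytes and macrophages 5 and for NK cells 2. For CD8 T cells there were 2 and for plasmacytoid dendritic cells 6. The sorted cells held messages of several other types in both groups. B cell markers summed to 4046, 3324 and 5771 CPM on vehicle and 3322, 5199 and 3842 CPM on LCL161. Plasmacytoid dendritic cell markers summed to 3868, 856 and 2876 CPM on vehicle and 538, 1074 and 1454 CPM on LCL161, lowest in replicate 2 of the vehicle and replicate 1 of the LCL161 group, with all 7 members negative and a median of -1.40. Conventional dendritic cell markers summed to 110 to 316 CPM on vehicle and 82.1 to 189 CPM on LCL161, NK cell markers to 80.3 to 324 and 50.1 to 101 CPM, and monocyte and macrophage markers, which include Mrc1, to 377 to 441 and 205 to 685 CPM. These sums overlapped between the groups, as did those of CD8 T cells, at 16.7 to 101 CPM on vehicle and 17.3 to 19.0 CPM on LCL161. Platelet markers were low, at 6.14 to 15 CPM with vehicle and 17.5 to 21.8 CPM with LCL161, and did not overlap. Neutrophil markers were all positive (median 2.13, 0 of 10 called by edgeR and 1 by DESeq2, 5 at an unadjusted p under 0.05), and erythroid markers reached 11305 CPM in LCL161 replicate 3 and 194 to 3765 CPM in the other 5 libraries. The part of these cells in the changes of Tcrg-C2, Cd7, Mrc1, Sirpb1a, Apol7c and Cxcl10 was not tested.

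**Figure D4:**
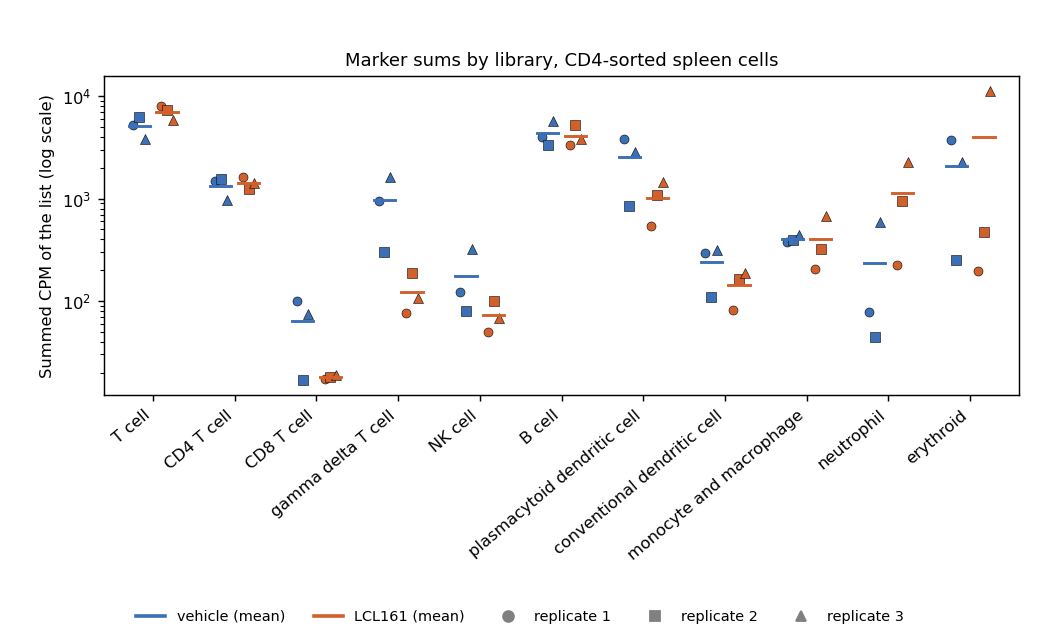
Summed CPM (log axis) of the marker genes of 11 cell types in each of the 6 libraries, with shapes for replicates and bars for group means. The γδ T cell sum is the one shown whose groups do not overlap, from 298 to 1633 CPM on vehicle and 76.5 to 186 CPM on LCL161, while erythroid and neutrophil sums range widely within each group.

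The same drug comparison was available in 2 related populations, the CD8-sorted cells of the spleen and the CD4-sorted cells of the tumor, each with its own 3 vehicle and 3 LCL161 libraries. The 9 called NF-kB and IAP genes were positive in both. In spleen CD8 cells 9 of 9 were called, from 0.63 to 2.61 on the log2 scale, where 4.10% of all genes were called higher. In tumor CD4 cells 7 of 9 were called, where 0.114% of all genes were. The exceptions in the tumor were Cxcl10 (0.38 ± 0.47, adjusted p = 0.78) and Nfkb2 (1.13 ± 0.24), whose adjusted p of 0.050 lay just past the threshold. The difference of effects was tested for each gene, and 0 of the 9 passed against either population in edgeR (lowest adjusted p 0.33 against spleen CD8 and 0.30 against tumor CD4), with 1 in each case at an unadjusted p under 0.05.

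Over all 48 genes higher in spleen CD4 cells, 43 were positive and 29 called higher in spleen CD8 cells, and 37 were positive and 9 called higher in tumor CD4 cells. Positive values made up 54.3% and 48.1% of all genes there. Their median log2 fold change was 1.33 in spleen CD4, 0.82 in spleen CD8 and 0.52 in tumor CD4 cells, and the first of these is raised by having chosen the genes there. Of the 39 lower genes 27 were negative and 8 called lower in spleen CD8 cells (4.18% of all genes), and 33 were negative and 0 called in tumor CD4 cells (0.208% of all genes), 17 of them at an unadjusted p under 0.05. Whether the higher and the lower genes differ in this was not tested. Between spleen CD8 and spleen CD4 cells 59 genes (0.292%) had a different effect, 7 of them among the 87. Between tumor CD4 and spleen CD4 cells 2 genes (0.00991%) had one, 0 of them among the 87. For this second difference 49 of the 87 had an unadjusted p under 0.05, against 2066 of all 20174 genes tested. The 87 were chosen by the spleen CD4 effect that enters both differences, which by itself lowers these p-values, so the 49 are no separate support.

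Arc was one of the 7. It changed by 1.58 in spleen CD4 cells and by -0.94 ± 0.33 in spleen CD8 cells, a difference of -2.52 ± 0.47 (adjusted p = 0.026). Cd7 changed by -1.41 in spleen CD4 and 0.38 ± 0.25 in spleen CD8 cells, a difference of 1.79 ± 0.36 (adjusted p = 0.040). Both genes thus had opposite signs in the 2 populations. Tcrg-C2 was at 0.82 ± 0.67 in spleen CD8 and -2.08 ± 0.70 in tumor CD4 cells, and its difference between the spleen populations did not pass (adjusted p = 0.065), whereas that of the variable segment Trgv2 did, narrowly (adjusted p = 0.050). Tnfrsf4 was at -0.27 ± 0.50 in spleen CD8 cells and 0.68 ± 0.45 in tumor CD4 cells, neither of which passed, and its difference against spleen CD8 had an adjusted p of 0.096. Socs1 and Socs3 were at -0.21 ± 0.20 and -0.25 ± 0.24 in tumor CD4 cells, against 1.35 and 1.39 in spleen CD4 cells, with adjusted p of 0.083 and 0.16 for the difference.

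**Figure D5:**
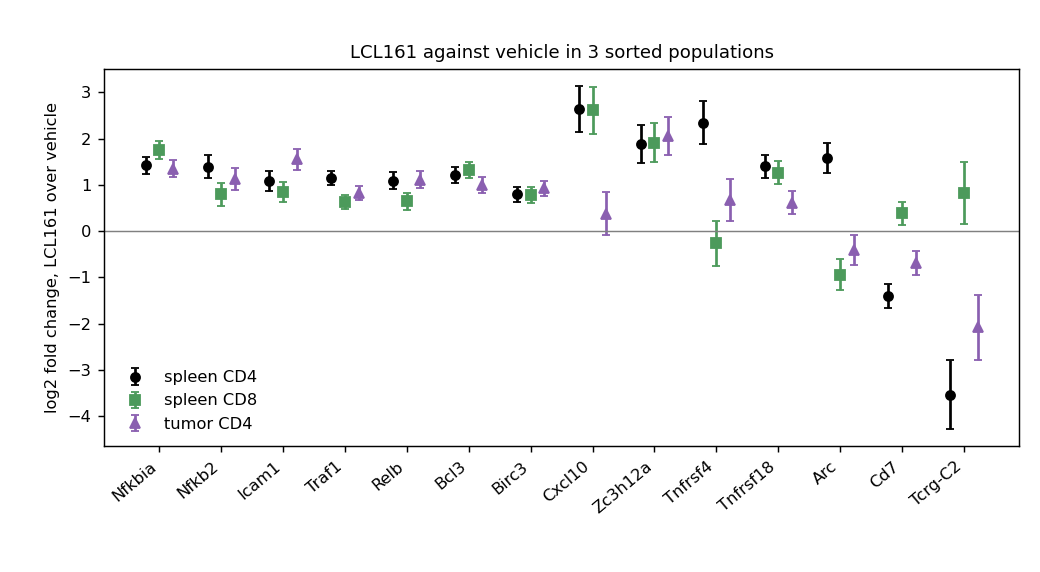
Log2 fold change of LCL161 over vehicle ± SE for 14 genes in spleen CD4 (black circles), spleen CD8 (green squares) and tumor CD4 cells (purple triangles). The 9 NF-kB and IAP genes at the left lie above 0 in all 3 populations, and Arc and Cd7 lie on opposite sides of 0 in the 2 spleen populations.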

How the data were processed

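The authors deposited 1 table of expected counts per gene, 55025 symbols by 24 columns, each matched by name to a sample (0 columns unmatched). Per the submitters' processing notes, adapters were trimmed with cutadapt and reads aligned to GRCm38 with STAR 2.7.3a. The sources used here do not name the tool that counted reads, its annotation or its strand setting. All values were rounded, 52.7% of those above 0 not being whole. Totals ran from 18.2 to 23.5 × 1e6 in the 6 libraries, which limits genes of a few CPM most. No pair of replicates agreed within counting noise (chi-square per gene 13.03 to 134.9), so none was merged. Pairs of spleen CD4 libraries had 68.31 to 134.9 with LCL161 and 30.45 to 71.13 with vehicle. Vehicle pairs had 15.34 to 21.73 in spleen CD8, 63.65 to 109 in tumor CD4 and 13.03 to 28.41 in tumor CD8 cells. LCL161 pairs had 23.66 to 62.56 in spleen CD8, 27.68 to 50.09 in tumor CD4 and 17.97 to 23.16 in tumor CD8 cells.

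Tests used edgeR 4.0.16 under R 4.3.3: filterByExpr with a minimum count of 10, TMM scaling (0.939 to 1.05), 1 robust quasi-likelihood model with a mean for each of 8 groups over 24 libraries (16 residual degrees of freedom, BCV 0.326), and Benjamini-Hochberg adjustment at 0.05. DESeq2 1.42.0, limma 3.58.1 (voom), other scalings and filters, a replicate block and leaving out each library were alternatives. Log levels used a prior count of 2. The pipeline was tested on simulated data.

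Coordinates and overlaps come from GENCODE M21 (19856 of the 20174 symbols tested matched), start-site windows from RefSeq. The comparison, its 44 gene lists and the tests were chosen with earlier results of these data known. Named genes are called list members, the 15 largest non-overlapping rises and falls with at least 5 CPM in the higher group (no predicted genes, clones, pseudogenes or receptor segments), a panel of 29 genes, and the 2 highest markers of each cell type; the text gives part of these. Other list members given with values (such as Nfkbiz, Fkbp5, Ctla4, Fos and Mki67) lie outside the rule and were chosen after their values were seen. Promoters were to be printed for the 3 NF-kB members of smallest adjusted p with a motif match (Nfkbia, Bcl3, Nfkb2). Those of Bcl3 and Nfkb2 were replaced, after they were seen, because the match or the stretch lies in an exon, and Cxcl10 was the next.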

Additional observations from a re-analysis of the deposited data

Results flagged for a closer look

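For 7 of the 87 genes called in spleen CD4 cells, the LCL161 effect in spleen CD8 cells differed from that in spleen CD4 cells by a test of the difference itself (edgeR, adjusted over all 20174 genes). The 87 were chosen by the spleen CD4 effect that enters this difference, which raises its size for them. The difference was negative for 1, Arc, at -2.52 on the log2 scale (adjusted p = 0.026). It was positive for the γ chain segments Trgv2, at 4.65 (adjusted p = 0.050), and Tcrg-V4, at 4.58 (adjusted p = 0.045). Trbj1-2, a joining segment of the β chain with 1.75 to 4.33 CPM in vehicle and 0 to 0.131 CPM in LCL161 libraries of spleen CD4 cells, differed by 5.92 (adjusted p = 0.026). Cd7 differed by 1.79 (adjusted p = 0.040) and the overlapping noncoding gene Gm11775 by 1.80 (adjusted p = 0.041), which may count the same reads. Pkd1l2 differed by 6.49 (adjusted p = 0.050), but it had 0.436 to 0.545 CPM with vehicle and 0 in every LCL161 library of spleen CD4 cells, so this fitted value depends on how zeros are handled.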

How the results depend on the processing

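The number of changed genes in spleen CD4 cells was 87. It was 78 with RLE scaling (39 higher, 39 lower), 90 with no scaling, 111 with at least 5 CPM in 3 libraries, 49 with no filter, 648 with DESeq2 (83 shared), 2 with limma voom, 0 with the 6 libraries alone and 0 to 220 when 1 library was left out. With the replicate number as a block it was 56 (50 shared), and 47 with RLE scaling and the replicate block together. Same-numbered vehicle and LCL161 libraries of spleen CD4 cells did not deviate together (correlations -0.07, -0.09 and 0.08). Whether same-numbered libraries of spleen CD4, spleen CD8 and tumor CD4 cells come from the same mouse was not tested. The tests of a difference treat them as independent. The 59 genes whose effect differed between spleen CD8 and spleen CD4 cells were 34 with no scaling, 34 with no filter, 134 with at least 5 CPM, 511 with DESeq2, 565 with voom, 3 with the compared libraries alone and 0 to 314 without a library. The 2 genes that differed between tumor CD4 and spleen CD4 cells were 1 with at least 5 CPM, 137 with DESeq2, 0 with the compared libraries alone, 0 with the replicate block and 0 to 21 without a library.

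Over 15 alternatives, 331 of 615 values of the 41 named called genes stayed past the threshold and 284 did not, and 0 changed sign. A change of sign was hardly possible, as the groups of these genes do not overlap. Without LCL161 replicate 1, 0 of the 41 passed, without vehicle replicate 3 only Apol7c, Bcl3, Nfkbia and Traf1, and without vehicle replicate 1, 8. The cause was not tested. A log2 fold change of at least 1 left 65 genes. Without the 50 bases after the start, 6 of the 10 windows of the called NF-kB members and 22.1% of those of all genes tested held the motif.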
